A study of Homo sapiens with 10 samples.

Results

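The 9 keratin genes described here were taken by name from a table of 57736 gene identifiers, and all 9 were found and passed the filter on low counts, which kept 17978 genes. They form a simple-epithelial group of 4 (KRT7, KRT8, KRT18 and KRT19) and a stratified or basal group of 5 (KRT4, KRT6A, KRT15, KRT17 and KRT80). RNA was sequenced in 10 libraries of human lung cancer cells after transfection with an siRNA against p53 or a control siRNA. The NCI-H2087 line, whose p53 protein has the change V157F, gave 2 libraries with p53 siRNA and 2 with control siRNA. The NCI-H441 line, with R158L, gave the same numbers. The NCI-H2110 line, with R158P, gave 1 library with p53 siRNA and 1 with control siRNA, both numbered replicate 2. NCI-H2087 and NCI-H441 are established lung adenocarcinoma lines. Each mutation is represented by a single line, so the effects of line and mutation cannot be told apart. The sample titles use the word knockout, but the protocol and the experiment label name an siRNA. The labels do not say whether replicates were separate cultures, and p-values therefore measure the spread between these libraries, which may be technical.

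Keratins are the intermediate filament proteins of epithelial cells. A filament is built from pairs of an acidic type I keratin, here KRT15, KRT17, KRT18 and KRT19, and a basic type II keratin, here KRT4, KRT6A, KRT7, KRT8 and KRT80. Single-layered epithelium of the lung typically makes KRT7, KRT8, KRT18 and KRT19, whereas basal and squamous cells use other pairs, and pathologists read keratins to trace the origin of a carcinoma.

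On the GRCh38 annotation of GENCODE 29, 6 of the genes lie in the chromosome 12 keratin cluster and the other 3 on chromosome 17. The chromosome 12 genes are KRT80 (chr12:52168996-52192000, minus strand), KRT7 (chr12:52232520-52252186, plus strand), KRT6A (chr12:52487174-52493257, minus strand), KRT4 (chr12:52806549-52814551, minus strand), KRT8 (chr12:52897187-52949954, minus strand) and KRT18 (chr12:52948871-52952901, plus strand). On chromosome 17 lie KRT15 (chr17:41513743-41522529), KRT19 (chr17:41523617-41528308) and KRT17 (chr17:41619441-41624842), each on the minus strand. KRT8 and KRT18 overlap on opposite strands over 1084 bases, chr12:52948871-52949954. The sources used here do not say whether counting used strand, and reads from that stretch could be given to either gene. Of all stretches of 50 bases in the KRT18 transcript, 47.6% also occur in transcripts of another gene or pseudogene, on either strand. This share was 41.3% for KRT8, 39.1% for KRT6A, 16.0% for KRT17, 10.8% for KRT7 and at most 1.79% for KRT4, KRT15, KRT19 and KRT80. Counts listed for the processed pseudogenes of a keratin came to at most 0.48% of its own counts. Unprocessed pseudogenes, such as KRT17P1, were not in this sum. Levels of KRT8, KRT18 and KRT6A are uncertain as far as reads from shared stretches could have been split.

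KRT6A has near-identical neighbours, KRT6B and KRT6C. The 90-base stretch with the most differences between KRT6A and KRT6B is shown, so the copies are less alike in it than over the whole coding sequence. Over 1692 coding bases, KRT6B differs from KRT6A at 42 positions (97.52% identity) and KRT6C at 35 (97.93% identity). The lines below give coding bases 656 to 745 from the GENCODE 29 transcripts, 5′ to 3′, with every base at which any of the 3 differs in capitals.
KRT6A: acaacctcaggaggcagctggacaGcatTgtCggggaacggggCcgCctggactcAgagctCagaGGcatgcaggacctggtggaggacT
KRT6B: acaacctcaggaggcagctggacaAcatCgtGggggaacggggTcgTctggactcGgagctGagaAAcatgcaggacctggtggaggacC
KRT6C: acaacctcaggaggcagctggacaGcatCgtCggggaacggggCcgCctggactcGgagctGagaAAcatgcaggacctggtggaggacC
In this window KRT6B differs from KRT6A at 10 bases and KRT6C at 6. The table lists 22 counts for KRT6B and 2 for KRT6C over all 10 libraries, against 4524 for KRT6A, and adding them to KRT6A, a check chosen after seeing the data, changed no call of KRT6A.

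The promoter of KRT4, the keratin with the largest change of the 9, is printed because the results turn on this gene. It is the RefSeq GRCh38.p14 stretch chr12:52814067-52814366 on the minus strand, 250 bases before and 50 after the start site at 52814116, with 2 of the 5 GENCODE transcripts of KRT4 beginning within 100 bases of it.
KRT4 promoter: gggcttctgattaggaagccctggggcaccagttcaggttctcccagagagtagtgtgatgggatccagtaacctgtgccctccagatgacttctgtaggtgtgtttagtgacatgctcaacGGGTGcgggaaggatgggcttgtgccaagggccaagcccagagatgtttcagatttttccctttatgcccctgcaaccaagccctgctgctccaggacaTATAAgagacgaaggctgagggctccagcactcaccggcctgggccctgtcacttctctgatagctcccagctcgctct
Capitals mark TATAA, whose first base lies at position -29 from the start site, and the reverse complement of CACCC at -128. Both strands were searched, and TATAA occurs in 20.4% and CACCC in 59.9% of 35116 RefSeq promoters of the same length. The letters TGANTCA (7.71% of promoters) and GGGCGG (45.0%) are not in this window. The table of promoters held 2 of the 9 keratins, KRT4 and KRT8, and the KRT8 entry starts where only 1 of 17 annotated KRT8 transcripts begins.

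Library totals ran from 18336672 to 25810934 counts, and the 9 keratins together took between 0.284% and 0.841% of them. Levels are CPM, counts divided by the library size in megacounts after TMM scaling, and levels of different genes are compared only as CPM per kilobase of transcript. The p53 transcript stood at 7.82 and 5.87 CPM with p53 siRNA against 207 and 162 CPM with control siRNA in NCI-H2087. In NCI-H441 the p53 siRNA libraries had 10.4 and 15.3 CPM and the controls 92.4 and 90.4 CPM of it, and NCI-H2110 had 8.62 CPM with p53 siRNA and 59.3 CPM with control siRNA. All 8 epithelial markers (EPCAM, CDH1 and others) had at least 1 CPM in each of the 6 groups. Of 6 lung adenocarcinoma lineage markers, 5 reached 1 CPM in NCI-H2087 and 6 in NCI-H441, while NCI-H2110 had 2 with p53 siRNA and 3 with control siRNA. KRT5 and KRT14, the pair that defines basal cells, had at most 1 and 6 counts in any library. They belong to a list of 8 basal or squamous markers. Of these 8, NCI-H2110 had 3 at or above 1 CPM in each arm (TP63, DSC3 and TRIM29). TP63 stood there at 58.5 CPM with p53 siRNA and 45.2 CPM with control siRNA. NCI-H441 had 3 in each arm, with TP63 at 17.4 to 18.6 CPM with p53 siRNA and 22.3 to 24.4 CPM with control siRNA. NCI-H2087 had 2 in each arm. Immune markers summed to at most 7.84 CPM over 6 genes, with TYROBP at 0 in every group.

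KRT18, the type I partner of KRT8, was the highest of the 9 keratins per kilobase in all 6 groups. In NCI-H2087 it reached 4662 ± 39.1 CPM per kilobase with p53 siRNA and 2057 ± 123 CPM per kilobase with control siRNA (SD, n = 2). In NCI-H441 it reached 2115 ± 310.4 CPM per kilobase with p53 siRNA and 1589 ± 39.5 CPM per kilobase with control siRNA. NCI-H2110 had 1043 CPM per kilobase with p53 siRNA and 1022 CPM per kilobase with control siRNA. KRT18 stood 9.12- and 9.25-fold above KRT8 per kilobase in the NCI-H2087 libraries with p53 siRNA, against 9.29- and 10.3-fold in those with control siRNA. In NCI-H441 the ratio was 5.02 and 6.18 with p53 siRNA against 4.99 and 5.72 with control siRNA, and in NCI-H2110 it was 9.19 with p53 siRNA against 8.13 with control siRNA. In this ratio the arms of NCI-H441 overlapped, and those of NCI-H2087 lay next to each other.

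Below KRT18, the order depended on the line and, in NCI-H2087, on the siRNA. With p53 siRNA, NCI-H2087 had KRT8 second (508 ± 9.06 CPM per kilobase), followed by KRT19 (273 ± 70.4), KRT7 (182 ± 40.3) and KRT4 (17.5 ± 12.5), whose libraries overlapped those of KRT80. With control siRNA, KRT4 (228 ± 30.3 CPM per kilobase) and KRT8 (211 ± 27.5) shared the second place with overlapping libraries, followed by KRT19 (52.5 ± 4.57) and KRT7 (49.5 ± 2.08), which also overlapped. KRT80, KRT15, KRT6A and KRT17 followed in both arms, the last pair at most 0.51 CPM per kilobase with overlapping libraries. In NCI-H441 the order was the same in both arms, KRT18, KRT7, KRT19, KRT8, KRT4, KRT80, KRT6A, KRT15 and KRT17, with KRT7 and KRT19 overlapping in each. NCI-H2110 had KRT7 second in both arms (325 CPM per kilobase with p53 siRNA and 405 with control siRNA). KRT17 came after KRT7 with p53 siRNA (125 CPM per kilobase) and after KRT19 and KRT8 with control siRNA (47.2), and KRT4 was last in both (0.56 with p53 siRNA and 1.21 with control siRNA).

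**Figure D1:**
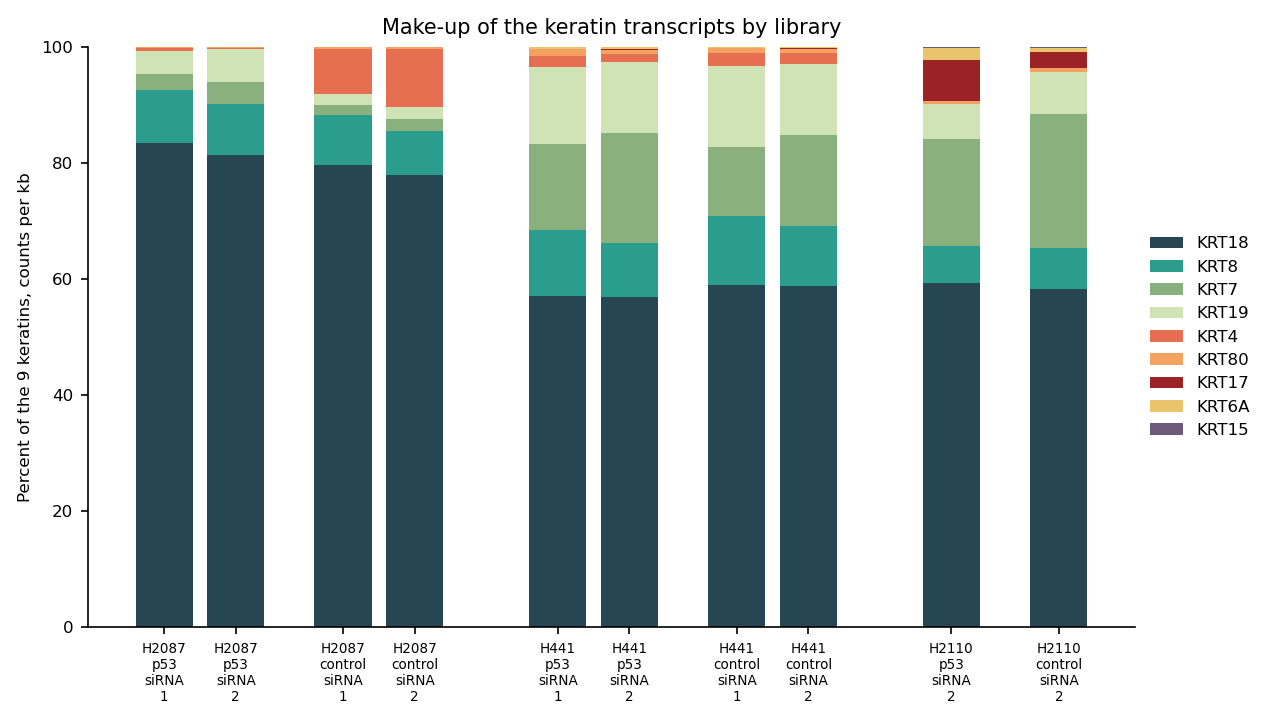
Stacked bars give the percent of the summed counts per kilobase of the 9 keratins that each gene takes in each of the 10 libraries, with p53 siRNA left of control siRNA in each line. KRT18 takes the most of every bar, KRT4 (orange) takes 0.47% and 0.15% in NCI-H2087 with p53 siRNA against 7.70% and 9.88% with control siRNA, and KRT17 (dark red) takes 7.08% with p53 siRNA against 2.69% with control siRNA in NCI-H2110.

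Taken per kilobase, the 4 simple-epithelial keratins made up 99.3% and 99.6% of the 9 in NCI-H2087 with p53 siRNA, against 91.9% and 89.7% with control siRNA. The arms did not overlap, and KRT4 alone took up to 0.47% with p53 siRNA and at least 7.70% with control siRNA. In NCI-H441 the share was 96.5% and 97.4% with p53 siRNA against 96.7% and 97.1% with control siRNA, with the control libraries inside the range of the others. In NCI-H2110 it was 90.1% with p53 siRNA against 95.7% with control siRNA. Lengths are those of 1 transcript per gene, from 1390 bases (KRT19) to 5237 bases (KRT15), so KRT15 is set low where cells use a shorter transcript.

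In NCI-H2087, 6 of the 9 keratins passed the test with p53 siRNA, 5 of them higher and 1 lower. All 4 simple-epithelial keratins rose, KRT15 rose, and KRT4 fell. The test was edgeR's quasi-likelihood test with Benjamini-Hochberg adjustment over all 17978 genes at an adjusted p of 0.05, and it called 8.68% of all genes in this line (4.98% higher and 3.69% lower). The replicate block gave the same count of 6, beside 25.4% of all genes. In such bulk libraries, fewer cells that make a transcript and less of it per cell cannot be told apart. The median log2 fold change was 1.57 over the simple keratins and -0.22 over the stratified or basal ones, beside -0.03 over all genes.

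KRT19, the smallest keratin, which lacks most of the tail domain, showed the largest rise. It stood at 309.9 and 448 CPM with p53 siRNA, against 68.5 and 77.5 CPM with control siRNA. The lowest p53 siRNA library was 4-fold above the highest control library, and the log2 fold change was 2.38 ± 0.21 (SE, n = 2 per arm, edgeR adjusted p = 0.000583). KRT7, a type II keratin typical of lung adenocarcinoma, stood at 269 and 369 CPM with p53 siRNA, against 84.2 and 89.4 CPM with control siRNA. Its arms were also well apart, with a log2 fold change of 1.88 ± 0.25 (edgeR adjusted p = 0.00288).

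KRT8 and KRT18, the pair of simple epithelium, rose by about the same factor. KRT8 stood at 867 and 845 CPM with p53 siRNA, against 389 and 324 CPM with control siRNA (log2 fold change 1.26 ± 0.16, edgeR adjusted p = 0.00256). KRT18 stood at 7325 and 7238 CPM with p53 siRNA, against 3348 and 3077 CPM with control siRNA (log2 fold change 1.18 ± 0.16, edgeR adjusted p = 0.00278). For both genes the replicates of an arm lay close together and the arms did not overlap. Without control replicate 2 both calls were lost, with adjusted p of 0.0519 for KRT8 and 0.0555 for KRT18 at log2 fold changes of 1.15 and 1.13, and 4 of the 9 keratins were then called. Over all genes the same fit called 177 of 17850 (0.992%), against 1560 with every library.

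KRT15, a type I keratin of basal cells, rose at a low level. It stood at 16.4 and 16.0 CPM with p53 siRNA, against 5.16 and 5.05 CPM with control siRNA (log2 fold change 1.66 ± 0.20, edgeR adjusted p = 0.00238). The replicates of each arm differed by under 0.5 CPM. KRT15 moved in the direction of the simple keratins, although it belongs to the basal list.

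KRT4, the type II keratin of non-cornified stratified epithelium such as the oesophagus, moved the other way. It stood at 67.8 and 22.4 CPM with p53 siRNA, against 533 and 643 CPM with control siRNA. Both p53 siRNA libraries were far below both controls but differed 3-fold between themselves, and the log2 fold change was -3.71 ± 0.44 (edgeR adjusted p = 0.00215). It was -4.72 without p53 siRNA replicate 1 and -3.12 without p53 siRNA replicate 2, and it was called in both fits.

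The other stratified or basal keratins did not pass the test in NCI-H2087. KRT80, a type II keratin found in many epithelia, stood at 34.5 and 37.1 CPM with p53 siRNA, against 33.4 and 30.4 CPM with control siRNA (log2 fold change 0.17 ± 0.15, edgeR adjusted p = 0.55). Its libraries did not overlap, but the value was -0.01 when library totals alone set the scale. KRT6A, a type II keratin induced in wounded and hyperproliferative epidermis, stood at 1.03 and 0.42 CPM with p53 siRNA, against 1.19 and 0.87 CPM with control siRNA (-0.48 ± 0.49, edgeR adjusted p = 0.587). KRT17, a type I keratin induced under the same conditions, stood at 0.56 and 0.42 CPM with p53 siRNA, against 0.67 and 0.49 CPM with control siRNA (-0.22 ± 0.43, edgeR adjusted p = 0.81). At these low levels the arms of KRT6A and KRT17 overlapped, and changes of the size of their errors were not detectable. In all, 7 of the 9 keratins had libraries that did not overlap between arms, beside 55.9% of all genes, and 6 of them were higher with p53 siRNA, beside 25.4% of all genes.

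**Figure D2:**
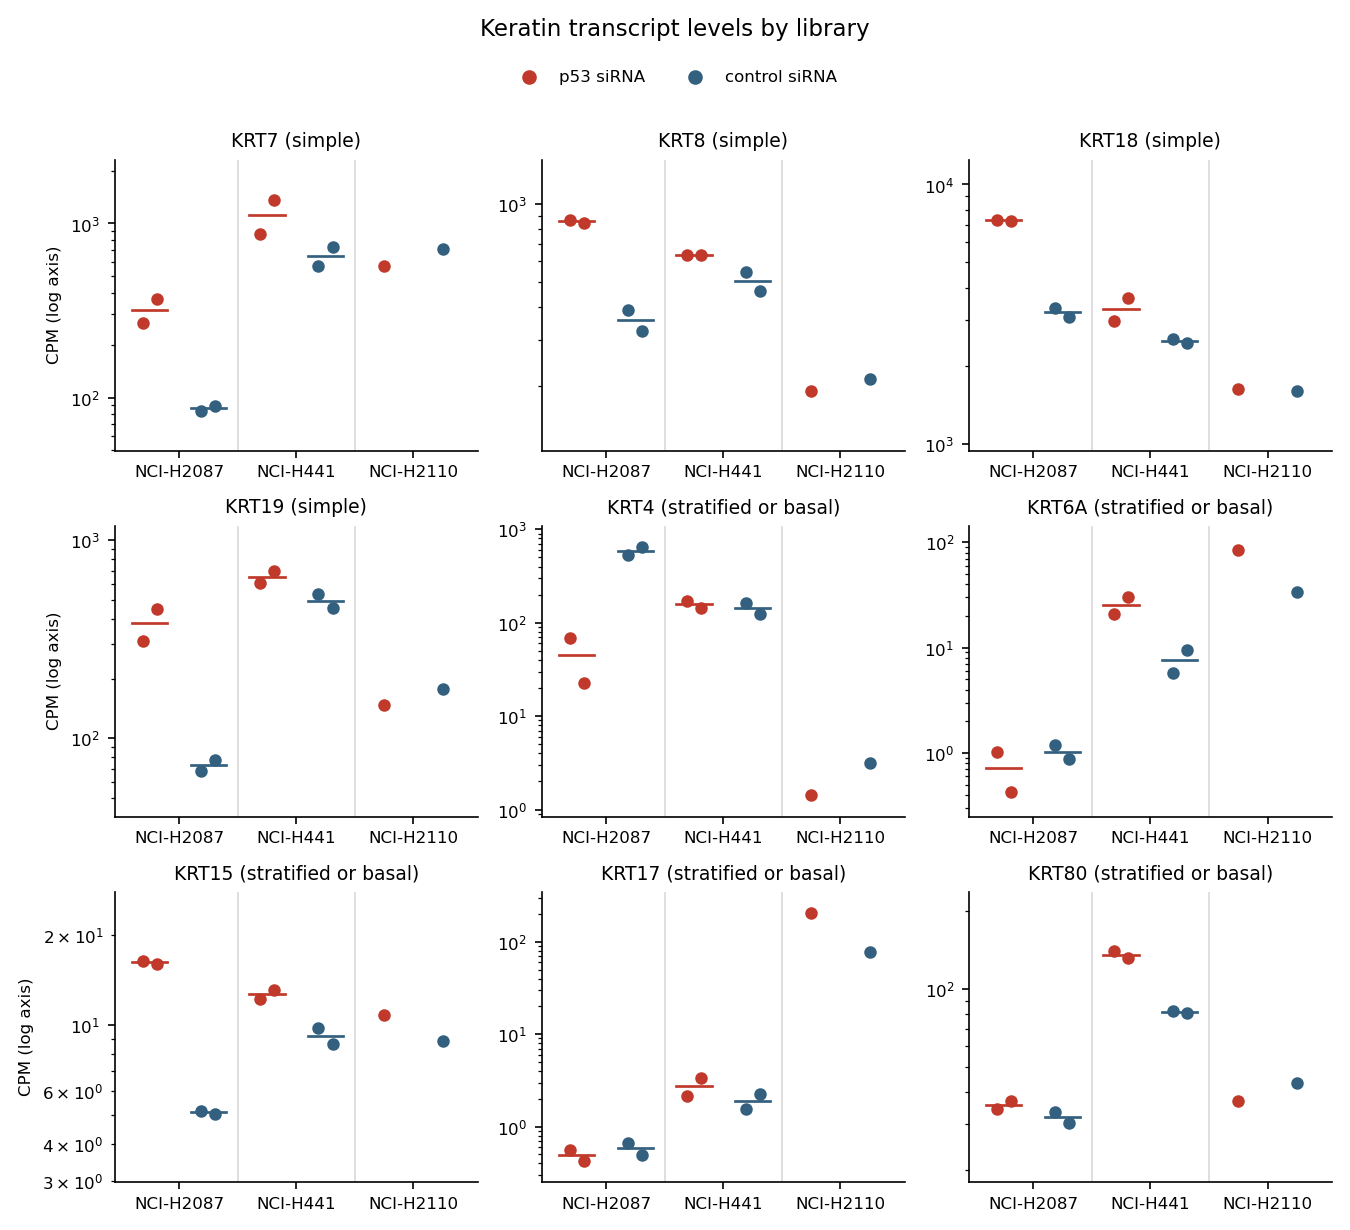
Each panel gives the CPM of 1 keratin (log axis) in each library, with p53 siRNA (red) left of control siRNA (blue) in each line; points are libraries and horizontal lines are means of 2 libraries. KRT7, KRT8, KRT18, KRT19 and KRT15 are higher and KRT4 lower with p53 siRNA in NCI-H2087, and KRT6A and KRT17 are higher with p53 siRNA in NCI-H2110 (KRT6A at 84.7 CPM against 33.4 CPM with control siRNA, KRT17 at 206 CPM against 78.0 CPM with control siRNA).

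In NCI-H441 none of the 9 keratins passed the same test, which called 0.00556% of all genes, the p53 transcript alone. At an unadjusted p of 0.05, 5 keratins passed (KRT6A, KRT80, KRT7, KRT18 and KRT15), beside 4.43% of all genes. DESeq2 called 2, KRT6A and KRT80, beside 0.281% of the genes to which it gave an adjusted p, and 2 were called without a filter on low counts, KRT6A and KRT7, beside 0.235%. By limma-voom, which called 1 of 17978 genes, none of the 9 passed, with KRT6A lowest at an adjusted p of 0.456. The fit with the replicate number as a block called 3, KRT6A, KRT80 and KRT7, beside 0.417% of all genes. Replicate numbers were taken as pairs because deviations of same-numbered libraries were correlated, as given with the processing. In every one of these calls the keratin was higher with p53 siRNA. The median log2 fold change was 0.41 over the simple keratins and 0.52 over the stratified or basal ones, beside 0.01 over all genes.

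KRT6A had the largest value in NCI-H441. It stood at 20.7 and 30.4 CPM with p53 siRNA, against 5.75 and 9.47 CPM with control siRNA. The arms did not overlap, and the log2 fold change was 1.75 ± 0.34 with an edgeR adjusted p of 0.614 (0.000614 with the replicate block and 0.00079 by DESeq2). KRT80 stood at 139.7 and 131 CPM with p53 siRNA, against 82.0 and 80.6 CPM with control siRNA. Its replicates were close and the arms apart, with a log2 fold change of 0.74 ± 0.15 and an edgeR adjusted p of 0.696 (0.0317 with the replicate block and 0.0112 by DESeq2). KRT7 stood at 869.9 and 1366 CPM with p53 siRNA, against 569.7 and 734 CPM with control siRNA (0.78 ± 0.24, edgeR adjusted p = 0.933, and 0.0282 with the replicate block).

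The other simple keratins of NCI-H441 were 0.34 to 0.41 higher on the log2 scale and did not pass the test (edgeR adjusted p = 0.933 for each, and 0.195 to 0.288 with the replicate block). KRT18 stood at 2961 and 3647 CPM with p53 siRNA, against 2526 and 2439 CPM with control siRNA. KRT8 stood at 637 and 637 CPM with p53 siRNA, against 547 and 461 CPM with control siRNA. KRT19 stood at 609 and 694 CPM with p53 siRNA, against 535 and 453 CPM with control siRNA. In each of these the lowest p53 siRNA library lay above the highest control library. KRT15 was also apart, at 12.2 and 13.1 CPM with p53 siRNA against 9.74 and 8.62 CPM with control siRNA (0.46 ± 0.20). KRT17, at 2.13 and 3.35 CPM with p53 siRNA against 1.55 and 2.26 CPM with control siRNA, overlapped (0.52 ± 0.29). KRT4 overlapped too, at 170.1 and 145 CPM with p53 siRNA against 162 and 125 CPM with control siRNA (0.13 ± 0.39). In all, 7 of the 9 keratins had every p53 siRNA library above every control library, beside 17% of all genes, while libraries that did not overlap in either direction were found for 34% of all genes.

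Whether a keratin changed by a different amount in NCI-H2087 than in NCI-H441 was tested in the same fit. KRT19 and KRT4 passed, 2 of 9, beside 0.412% of all genes (0.239% higher and 0.172% lower). The change of KRT19 was larger by 1.98 ± 0.29 on the log2 scale in NCI-H2087 (edgeR adjusted p = 0.0298). The change of KRT4 was -3.84 ± 0.58 relative to that in NCI-H441 (edgeR adjusted p = 0.0330). The sizes held when 1 library was left out, at 1.69 to 2.22 for KRT19 and -4.85 to -3.25 for KRT4, but the calls did not. Over all genes this contrast went to 0 calls without any 1 of the 4 control libraries, against 74 with every library. The KRT19 call was lost without any 1 of 7 libraries, that is every one but NCI-H2087 p53 siRNA replicate 1, with adjusted p up to 0.176. The KRT4 call was lost without any 1 of the 4 control libraries or the 2 NCI-H441 p53 siRNA libraries, with adjusted p up to 0.177. With the replicate block 7 keratins were called, beside 8.92% of all genes. DESeq2 called 7, beside 3.63%, and 6 were called without a filter on low counts, beside 2.76%. By limma-voom only KRT19 (adjusted p = 0.0482) and KRT4 (adjusted p = 0.0428) passed, beside 31 of 17978 genes. The simple keratins KRT7 (1.10 ± 0.34, edgeR adjusted p = 0.221, blocked 0.00274), KRT8 (0.93 ± 0.23, edgeR adjusted p = 0.131, blocked 0.00668) and KRT18 (0.77 ± 0.22, edgeR adjusted p = 0.185, blocked 0.0159) were on the side of a larger change in NCI-H2087. So was KRT15 (1.2 ± 0.28, edgeR adjusted p = 0.119, blocked 0.00892), while KRT6A was on the other side (-2.23 ± 0.59, edgeR adjusted p = 0.160, blocked 0.00167). KRT17 (-0.74 ± 0.52) and KRT80 (-0.57 ± 0.22) passed in neither fit.

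NCI-H2110 had 1 library per arm, so its values carry no replicate check and no test. KRT17 had 4749 counts (206 CPM) with p53 siRNA and 1982 (78.0 CPM) with control siRNA, a log2 ratio of 1.40. KRT6A had 1955 counts (84.7 CPM) with p53 siRNA and 849 (33.4 CPM) with control siRNA, a log2 ratio of 1.34. The exact binomial 95% intervals of these ratios, which cover counting error only, are 1.32 to 1.48 for KRT17 and 1.23 to 1.46 for KRT6A. KRT4 had 33 counts (1.43 CPM) with p53 siRNA and 79 (3.11 CPM) with control siRNA, a log2 ratio of -1.08 with a counting interval of -1.75 to -0.52. These 3 keratins of 9 were past 2-fold with at least 50 counts in either library, beside 1.49% of 12385 genes (0.904% higher and 0.589% lower).

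The simple keratins of NCI-H2110 had log2 ratios between -0.32 and 0.03. KRT7 stood at 569.9 CPM with p53 siRNA and 711 CPM with control siRNA (log2 ratio -0.32), and KRT19 at 146 CPM with p53 siRNA and 176 CPM with control siRNA (-0.27). KRT8 stood at 192 CPM with p53 siRNA and 212 CPM with control siRNA (-0.15), and KRT18 at 1629.6 CPM with p53 siRNA and 1597 CPM with control siRNA (0.03). Of the other stratified or basal keratins, KRT80 stood at 37.0 CPM with p53 siRNA and 43.4 CPM with control siRNA (-0.23), and KRT15 at 10.7 CPM with p53 siRNA and 8.82 CPM with control siRNA (0.28). KRT16, a type I partner of KRT6A in epidermis, had 164 counts with p53 siRNA and 105 with control siRNA (log2 ratio 0.77). KRT5 was at 0 counts in both libraries and KRT14 at 4 with p53 siRNA and 0 with control siRNA.

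An additive model of line and siRNA gave the average siRNA change over the 3 lines, without testing whether the lines changed alike, and it called none of the 9, beside 0.395% of all genes (0.339% higher and 0.0556% lower). At an unadjusted p of 0.05, 8 of the 9 passed, all but KRT80, beside 14.2% of all genes. KRT15 (0.90 ± 0.22, edgeR adjusted p = 0.112), KRT18 (0.64 ± 0.18, adjusted p = 0.143) and KRT7 (1.00 ± 0.29, adjusted p = 0.149) had the smallest p. DESeq2 called these 3, beside 4.20% of the genes to which it gave an adjusted p, and 7 were called without a filter on low counts, beside 3.83% of genes. By limma-voom, which called 94 of 17978 genes, none of the 9 passed, with KRT6A lowest at an adjusted p of 0.077. KRT19 stood at 1.04 ± 0.36, KRT6A at 1.09 ± 0.35, KRT17 at 0.65 ± 0.26, KRT8 at 0.61 ± 0.20 and KRT80 at 0.32 ± 0.15, while KRT4 stood at -1.66 ± 0.65. KRT4 was the only one of the 9 below 0.

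Between the control libraries of both lines, 8 of the 9 keratins differed between NCI-H2087 and NCI-H441, beside 42.1% of all genes. Of the 8, 7 were lower in NCI-H2087, beside 20.1% of all genes, and KRT4 was higher. KRT7 was lower by far, at 84.2 and 89.4 CPM in NCI-H2087 against 569.7 and 734 CPM in NCI-H441 (log2 fold change -2.91 ± 0.26, edgeR adjusted p = 2.56e-05). KRT19, at 68.5 and 77.5 CPM in NCI-H2087 against 535 and 453 CPM in NCI-H441, differed similarly (-2.76 ± 0.21).

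KRT6A (-2.91 ± 0.41), KRT17 (-1.74 ± 0.36) and KRT80 (-1.35 ± 0.16) were lower in NCI-H2087 than in NCI-H441. KRT15 (-0.85 ± 0.20, edgeR adjusted p = 0.0082) and KRT8 (-0.50 ± 0.16, edgeR adjusted p = 0.0309) differed less. The KRT8 call was lost without NCI-H2087 control replicate 2 or either NCI-H441 control library (adjusted p up to 0.213), and the KRT15 call without NCI-H2087 control replicate 2 or NCI-H441 control replicate 1 (up to 0.06). KRT4 stood at 533 and 643 CPM in NCI-H2087 against 162 and 125 CPM in NCI-H441 (2.04 ± 0.41, edgeR adjusted p = 0.00318). KRT18, at 3348 and 3077 CPM in NCI-H2087 against 2526 and 2439 CPM in NCI-H441, did not pass (0.37 ± 0.15, edgeR adjusted p = 0.0775, and 0.0472 by DESeq2). With p53 siRNA, KRT7 and KRT19 of NCI-H2087 were below their control levels of NCI-H441 in every library, whereas KRT8 and KRT18 stood above them. For KRT19 the nearest libraries were almost level, at 448 CPM in NCI-H2087 p53 siRNA replicate 2 and 453 CPM in NCI-H441 control replicate 2. These differences across line and siRNA were not tested. The comparisons with p53 siRNA use these same control libraries.

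Among the 9, KRT8 and KRT18 were most alike across the 10 libraries. Likeness was measured as the root mean square difference in log2 CPM after each gene was centred on its own mean, and it was 0.39 for KRT8 and KRT18, whose overlap and shared sequence are described above. The next nearest pairs were KRT8 with KRT15 (0.61), KRT18 with KRT15 (0.67) and KRT19 with KRT80 (0.73). KRT17 and KRT4 varied most around their own means (2.86 and 2.77), and KRT15 least (0.56).

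Over all 11109 genes with a mean of at least 5 CPM, the gene most like KRT18 was SYNJ2 (0.13), followed by ZNF511 and COTL1. For KRT8 it was CYTOR (0.18), then ABR and SNAPC2, and for KRT15 it was UBE2J1 (0.18), then AREL1 and IL6R. KRT80 was nearest to C1orf226 (0.22), MAP3K9 and SMURF1, and KRT19 to TNFRSF12A (0.30), SOCS3 and a gene listed only as ENSG00000230882. KRT7 was nearest to SERINC2 (0.32), BHLHE40 and ARFGAP3. Keratins with a wide range had less close neighbours, namely ADGRF5 (0.50), ANKRD33BP1 and BMP4 for KRT4, MSLN (0.57), GALNT15 and C2CD4A for KRT17, and TRIM29 (0.69), PTPN3 and MYH14 for KRT6A. These distances are over 10 libraries of 3 lines, which share line and depth, and are given as a description.

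The rest of the keratin family was mostly silent. Of 46 other keratin genes in the table, 9 passed the filter and 5 had a mean of at least 1 CPM (KRT10, KRT81, KRT86, KRT78 and KRT16). In NCI-H2087, KRT3, a type II keratin of the cornea, was the only one of the 9 called, beside 8.68% of all genes. It stood at 0.21 and 0.08 CPM with p53 siRNA, against 1.55 and 2.07 CPM with control siRNA (-3.56 ± 0.59, edgeR adjusted p = 0.00749, and 0.0749 without control replicate 2). KRT10, a type I keratin of suprabasal epidermis and the most abundant of these, stood at 28.3 and 30.7 CPM with p53 siRNA, against 27.3 and 23.4 CPM with control siRNA (0.22 ± 0.18). KRT81 (-0.15 ± 0.52) and KRT86 (0.27 ± 0.62), both hair keratins, KRT16 (0.54 ± 0.79) and KRT78 (-1.26 ± 0.79) did not pass either. KRT86 overlaps KRT7 on the same strand over 2887 bases. None of the 9 passed in edgeR in NCI-H441, for the difference or for the average change. With the replicate block, 1 rose and 1 fell in NCI-H2087, beside 25.4% of all genes. That block also called 1 higher in NCI-H441, beside 0.417%, and 2 lower for the difference, beside 8.92%. Between the control libraries, KRT16 (-3.68 ± 0.61), KRT78 (-3.58 ± 0.59) and KRT10 (-0.55 ± 0.18) were lower in NCI-H2087 than in NCI-H441, and KRT75 (4.86 ± 1.16) and KRT81 (1.54 ± 0.54) were higher, 5 of 9 beside 42.1% of all genes.

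The proteins that keratins work with were counted in the same NCI-H2087 comparison, with lists chosen with earlier results of these data known. Of 11 other intermediate filament genes tested, 1 rose, and the median log2 fold change was 0.57 beside -0.03 over all genes. It was VIM, the vimentin of mesenchymal cells, at 2932 and 3407 CPM with p53 siRNA against 1332 and 1672 CPM with control siRNA (1.08 ± 0.25, edgeR adjusted p = 0.0305). The VIM call was lost without any 1 of 6 libraries. Of 14 plakins and keratin linkers tested, 4 rose and 1 fell, with a median of 0.41. SFN (14-3-3 sigma, which binds KRT17 and KRT18) rose by 1.95 ± 0.29, DNAJB6, a chaperone that binds KRT18, by 0.95 ± 0.15, and PLEC, the plectin that ties keratin to other structures, by 0.88 ± 0.16 on the log2 scale. TCHP, named after its values were seen, rose by 0.90 ± 0.24, and FBF1 had -1.36 ± 0.33. The TCHP call was lost without any 1 of 6 libraries, and the FBF1 call without any 1 of 5. The replicate block, which called 25.4% of all genes, gave 2 rises and 2 falls among the other intermediate filament genes. Among plakins and linkers it gave 6 rises and 1 fall.

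Of 9 desmosome genes tested, 1 rose (PKP2, a plakophilin, 0.84 ± 0.18) and none fell in edgeR, with a median of -0.17. With the replicate block, 2 desmosome genes rose and 3 fell. Of 7 hemidesmosome genes, 2 rose, both subunits of the integrin that anchors keratin to the basement membrane, ITGB4 (0.97 ± 0.16) and ITGA6 (1.14 ± 0.24), and the median was 0.97. ITGB4 also passed for the average change over the 3 lines (0.73 ± 0.12, edgeR adjusted p = 0.0258), but this call was lost without any 1 of 5 libraries. None of 11 cornified envelope genes passed in edgeR, and 2 did with the replicate block, beside 25.4% of all genes called with that block. Among the hemidesmosome genes that block gave 5 rises and 0 falls. The edgeR counts of these lists stand beside 8.68% of all genes called in either direction.

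Of 28 transcription factors reported at keratin genes, 3 rose and 5 fell in NCI-H2087, with a median of -0.02, beside 4.98% of all genes higher and 3.69% lower. FOSL1, an AP-1 subunit, stood at 756 and 636 CPM with p53 siRNA, against 106 and 76.3 CPM with control siRNA (2.94 ± 0.22, edgeR adjusted p = 0.000388). GRHL1, a grainyhead-like factor of epithelial genes, stood at 18.8 and 17.7 CPM with p53 siRNA, against 86.3 and 107 CPM with control siRNA (-2.40 ± 0.20, edgeR adjusted p = 0.000577). TP63, the p53 relative that marks basal cells, changed by -2.44 ± 0.30, and SNAI2, a zinc finger repressor, rose by 1.57 ± 0.25. JUN (1.22 ± 0.24), SOX2 (-1.77 ± 0.35), GRHL2 (-1.03 ± 0.23) and OVOL2 (-1.10 ± 0.29), named after their values were seen, made up the rest. The OVOL2 call was lost without any 1 of 5 libraries. FOSL1 (2.86 ± 0.30) and GRHL1 (-2.29 ± 0.28) also passed for the difference between NCI-H2087 and NCI-H441, which called 0.412% of all genes. Both of these calls for the difference were lost without any 1 of the 4 control libraries, as was every call of that contrast over all genes. The GRHL1 call for the difference was also lost without NCI-H2087 p53 siRNA replicate 2 or NCI-H441 p53 siRNA replicate 1. SNAI2 passed for the average change (1.12 ± 0.21, edgeR adjusted p = 0.045, and 0.0574 with the replicate block), but this call was lost without any 1 of 7 libraries. Of the 18 calls in these lists and the other keratins in NCI-H2087, FOSL1, GRHL1 and TP63 held without any 1 library, and 15 were lost without control replicate 2, where calls over all genes numbered 177 against 1560 with every library. In NCI-H441 no gene of any of these lists passed in edgeR. With the replicate block, 6 of the transcription factors rose and 8 fell in NCI-H2087, beside 25.4% of all genes. In NCI-H441 that block called 1 hemidesmosome gene higher, beside 0.417% of all genes.

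**Figure D3:**
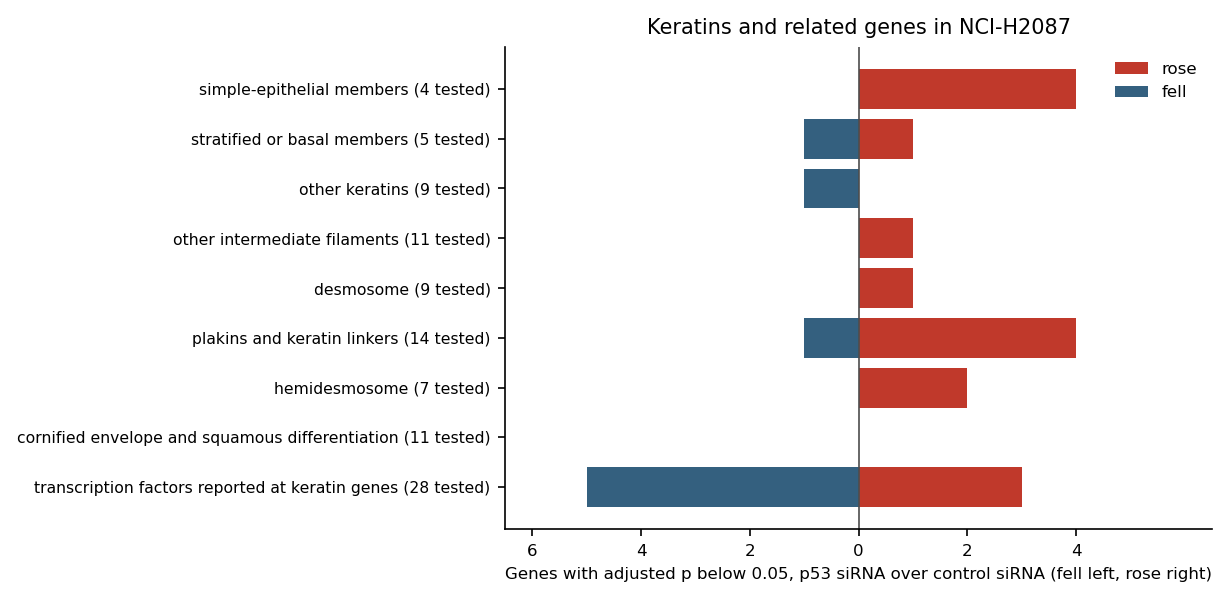
Bars count the genes of each list that rose (red, right) or fell (blue, left) with p53 siRNA in NCI-H2087 at an edgeR adjusted p below 0.05, with the number tested in brackets. All 4 simple-epithelial keratins passed, and the transcription factors hold 3 rises and 5 falls among 28, beside 8.68% of all genes called. The lists differ in size and were chosen with earlier results of these data known.

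Markers of other cell types were read beside the NCI-H2087 changes. The 6 mesothelial markers summed to 82.1 to 127.9 CPM with p53 siRNA, against 46.9 to 62.9 CPM with control siRNA, with 4 of 6 at or above 1 CPM with p53 siRNA and 2 with control siRNA. BNC1 alone made up 70.1 to 117.7 CPM with p53 siRNA and 37.1 to 53.4 CPM with control siRNA, while LRRN4 was lower with p53 siRNA (3.89 to 7.99 CPM, against 8.30 to 8.56 CPM with control siRNA) and MSLN had at most 0.04 CPM with p53 siRNA and 0.10 CPM with control siRNA. CALB2 was higher with p53 siRNA, at 2.82 to 4.65 CPM against 0.34 to 0.36 CPM with control siRNA. So was WT1, at 0.90 to 1.65 CPM against 0.34 to 0.62 CPM, while UPK3B overlapped between arms at low levels. The 6 lung lineage markers summed to 224 to 405 CPM with p53 siRNA, against 1061 to 1156 CPM with control siRNA. The 8 basal or squamous markers summed to 11.3 to 21.3 CPM with p53 siRNA, against 51.7 to 61.7 CPM with control siRNA, with KRT5 and DSG3 at 0 and 2 of 8, TP63 and SOX2, at or above 1 CPM. Epithelial markers overlapped, at 628 to 811 CPM with p53 siRNA and 687 to 731 CPM with control siRNA. Fibroblast markers summed to 12.4 to 16.4 CPM with p53 siRNA and 14.2 to 17 CPM with control siRNA, with 1 of 6 at or above 1 CPM. The 4 endothelial markers found summed to 7.65 to 12.6 CPM with p53 siRNA, against 22.6 to 24.8 CPM with control siRNA, with 1 at or above 1 CPM with p53 siRNA and 2 with control siRNA. KDR alone made up 7.10 to 12.1 CPM with p53 siRNA and 21.7 to 23.2 CPM with control siRNA. The part of these sums in the keratin results was not tested.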

How the data were processed

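RNA counts from 10 libraries of 3 established lung cancer cell lines were used. Per the labels' protocols, RNA came from an RNeasy Plus Mini Kit and sequencing libraries from a Lexogen mRNA kit. The authors deposited whole-number counts per Ensembl gene ID, not normalized. The submitters' processing notes name Bowtie2, RSEM 1.2.12 and hg19 without a role or order, and do not say whether counts are rounded estimates or use strand. Names came from a reference table for 51959 IDs and from GENCODE 29 for 342 more, and GENCODE 29 (GRCh38) gave positions and lengths.

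In R 4.3.3 with edgeR 4.0.16, filterByExpr kept 17978 genes with 99.96% of counts, and libraries were scaled by TMM. A quasi-likelihood fit with 6 group means, which leaves 4 residual degrees of freedom, gave both line contrasts, their difference and the control contrast. A fit with terms for line and siRNA, which leaves 6, gave the average change. Tests were two-sided with Benjamini-Hochberg adjustment over all genes, called below 0.05. SE came from the F statistic. The biological coefficient of variation was 19.8%. NCI-H2110 was compared by log2 CPM ratios (prior count 2), and intervals there cover counting error only. The fit was also run on simulated libraries with known changes. These were drawn independently from a single mean profile, so that check does not cover differences between lines or correlated replicates.

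Deviations of same-numbered libraries from their group means correlated between arms over 9332 genes (r = 0.534 in NCI-H2087, r = 0.595 in NCI-H441), so replicate numbers were treated as pairs, from the data and not from a label, and a replicate block (2 residual degrees of freedom) was fitted as an alternative. Replicates were not copies (chi-square per gene 21.3 to 63.6). Other alternatives were RLE scaling, library totals, filters, DESeq2 1.42.0, limma-voom 3.58.1, added counts of processed pseudogenes and leaving out libraries. The members and lists were chosen with earlier results of these data known. All 9 keratins are named, other keratins when called or at a mean of at least 1 CPM, up to 4 genes per other list by smallest p in NCI-H2087, and the 3 genes most like each keratin; exceptions are stated. NEFL, EPPK1 and PECAM1 were not analysed here.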

Additional observations from a re-analysis of the deposited data

Results flagged for a closer look

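KRT19 and KRT4 passed the edgeR test of whether p53 siRNA changed them by different amounts in NCI-H2087 and NCI-H441. The KRT19 call was lost without any 1 of 7 libraries, and the KRT4 call without any 1 of 6. For KRT19 the difference of the log2 fold changes, NCI-H2087 minus NCI-H441, was 1.98 (adjusted p = 0.0298), with a change of 2.38 in NCI-H2087 and 0.40 in NCI-H441. KRT19 was higher with p53 siRNA in 2 of 2 pairs of each line. For KRT4 the difference was -3.84 (adjusted p = 0.0330), with -3.71 in NCI-H2087 and 0.13 in NCI-H441. KRT4 was lower with p53 siRNA in 2 of 2 pairs of NCI-H2087 and higher in 2 of 2 pairs of NCI-H441, where the arms overlapped. NCI-H2110 did not enter this test, and its log2 ratios were -0.27 for KRT19 and -1.08 for KRT4. The levels of both genes in the control libraries also differed between the lines.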

How the results depend on the processing

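Of the counts of keratins called, 79 alternative values lay within 1.5 times the reported count and 15 did not. In NCI-H2087, 6 were called under every alternative except without control siRNA replicate 2 (range 4 to 6 when a library was left out). In NCI-H441, where edgeR called 0, there were 2 without a filter, 2 by DESeq2 and 3 with the replicate block. For the difference between lines, where edgeR called 2, there were 6 without a filter, 7 by DESeq2, 7 with the replicate block and 0 to 2 when a library was left out. For the average change, where edgeR called 0, there were 7 without a filter, 3 by DESeq2 and 0 with the replicate block. In each of these contrasts limma-voom called the same keratins as edgeR. The block changed no other call of the 9 keratins and could not be fitted for the control contrast, since it lies within a line. Direction changed for 4 uncalled values in NCI-H2087 or NCI-H441. KRT80 in NCI-H2087 was -0.0115 when library totals set the scale, which moved the median of all genes there from -0.03 to -0.21, and KRT6A in NCI-H2087 ranged from -1.25 to 0.0199, KRT17 there from -0.438 to 0.00735 and KRT4 in NCI-H441 from -0.0305 to 0.311 when 1 library was left out. The cause was not tested. With 2 libraries per arm the errors of KRT6A and KRT17 in NCI-H2087, at about 1 CPM or less, were too large for changes of their size to be detectable.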

Other observations

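Keratin pseudogenes were measured beside the genes, and 3 copies of KRT16 on chromosome 17 stood out after their values were seen. KRT16P2, a transcribed pseudogene, stood at 14.1 and 9.08 CPM with p53 siRNA in NCI-H2087, against 2.58 and 2.15 CPM with control siRNA (log2 fold change 2.30 ± 0.28, edgeR adjusted p = 0.00243). KRT16P1 (3.12 ± 0.46, edgeR adjusted p = 0.00428) and KRT16P3 (2.44 ± 0.36, edgeR adjusted p = 0.00421) were also called there, while KRT16 itself was not (0.54 ± 0.79, edgeR adjusted p = 0.725). The same test called 8.68% of all genes in this line, and 4.98% of all genes were called higher. KRT16P1 was low with control siRNA there, at 0.23 to 0.72 CPM. The 3 copies were picked by their values, so their calls are no result about keratin pseudogenes as a set. In NCI-H441, KRT16P2 stood at 139 and 108 CPM with p53 siRNA against 102 and 76.6 CPM with control siRNA, and none of the 3 copies was called. With control siRNA, KRT16P2 was lower in NCI-H2087 than in NCI-H441 by a log2 fold change of -5.24 ± 0.30. How reads were split between KRT16 and these copies is not given in the sources used here.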
